A study of Arabidopsis thaliana with 5 samples.

Results

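The regions described here are 584 peaks of FLAG-tagged NODULIN HOMEOBOX (NDX) that lie inside protein-coding genes of Arabidopsis thaliana and were not seen with the second tagged form of the protein. They were chosen by measured values. Each is in the deposited FLAG-NDX peak list, shares no base with any peak of the deposited NDX-GFP list, and has its midpoint between the start and the end of a gene annotated as protein-coding in the RefSeq annotation of TAIR10.1. There were 2243 FLAG-NDX peaks and 583 NDX-GFP peaks, or 2826 in all. Of the FLAG-NDX peaks, 1987 overlapped no NDX-GFP peak, and the 584 in protein-coding genes are the subset followed below. A further 355 of the 1987 had their midpoint in an annotated pseudogene and 1048 lay outside both kinds of gene.

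The study profiled tagged NDX by ChIP-seq in 10-day-old seedlings. FLAG-NDX was immunoprecipitated in 2 samples with an anti-FLAG antibody, NDX-GFP in 2 samples with an anti-GFP antibody, and 1 input sample was taken from the FLAG-NDX line. Both transgenes were carried by plants of the ndx1-1(FRI) flc-2 genotype, in which the native NDX gene and FLC are mutated, and the promoter that drives each transgene is not given in the sources used here. The extraction text supplied with the same samples describes proteinase K digestion and precipitation with S9.6, which recognises hybrids of DNA and RNA, so the tag and the antibody given for each sample are what names the peaks here. The material was whole seedlings, so the cell types behind a peak cannot be told apart. Each line has 1 list of peaks with no value per sample and no read counts. The depth is therefore unknown, the comparisons below are descriptions without a test over samples, and neighbouring peaks are not replicates.

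NDX is a homeobox protein of flowering plants with additional conserved domains beside its homeodomain. Homeodomain proteins bind DNA through a recognition helix, and many of them contact a short core that contains TAAT. NDX is known for its association with the end of the flowering repressor gene FLC, where antisense transcripts start, and with heterochromatin near the centromeres. A plant protein-coding gene consists of exons, which hold the coding sequence and the untranslated regions (UTRs) at both ends, and of introns that are spliced out.

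The bases at the centre of selected members are shown first because the members spanned a narrower range of base composition than gene sequence at large. Each line gives 30 bases around the peak midpoint, read 5′ to 3′ on the coding strand of the gene, with G and C in capitals. The members shown are those of lowest and of highest GC content, the 3 highest-scoring members without repeated sequence, and the highest of the 3 peaks in the condensin gene ATSMC2.
AT3G44703: tatatattattaaCaCGtaCGtataaCaCa
AT2G40715: taatGatGtCtGaGCaGttCaaGtGtCtGC
AT1G67785: tGGtCtatCtGattaCaaaCtttGaCaGtC
ABCA1 (AT2G41700): aaGaaCtaGGtGtttGCCCtCaGCatGaCa
ATSMC2 (AT3G47460): GataattaGGGtataCtaGCtGGtaaGaGt
AT5G07740: aCCGCCaCCGCCGCCCCCtatGtttGGaGG
These stretches lie, in the order shown, at chr3:16243681-16243710 on the forward strand, chr2:16984831-16984860, chr1:25416451-25416480 and chr2:17391751-17391780 on the reverse strand, chr3:17488141-17488170 on the forward strand, and chr5:2462558-2462587 on the reverse strand of TAIR10.1. GC content over the whole peak was 23.3% in AT3G44703, 37.2% in AT2G40715, 28.3% in AT1G67785, 38.9% in ABCA1, 36.7% in the ATSMC2 peak and 73.3% in AT5G07740. AT5G07740 encodes an actin-binding protein. The next highest GC content of a member was 59.3%, in AT5G19810, which encodes a proline-rich extensin-like protein of the cell wall.

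A second set of sequences shows members that carry the same bases in different genes. The first pair comes from intron 2 of ARF22 and of ARF14, which encode auxin response factors, DNA-binding proteins of the auxin response. Their longest identical run, in capitals, was 27 bases of a CT dinucleotide repeat.
ARF22 (AT1G34390), chr1:12556320-12556349: tTCTCTCTCTCTCTCTCTCTCTCTCTCTtt
ARF14 (AT1G35540), chr1:13108921-13108950: cTCTCTCTCTCTCTCTCTCTCTCTCTCTct
The other 5 pairs are the groups of members that shared at least one 31-mer, a run of 31 bases, and 30 bases of each shared run are given once because both members hold them unchanged.
AT1G24851 and AT1G25180: catctaaattcgattatgataagctatgat
AT1G34810 and AT1G34815: gatgaagcttgcaagaaaatctgcaacaat
AT1G39060 and AT1G39070: ctaactcttataattagtcaaatgcattgg
AT3G44400 and AT3G44670: attggtttttgtgaaagtgattgggatcat
AT5G17522 and AT5G17530: tagtcgagcttccaaagctggatccttcaa
The longest identical runs were 180 bp in the pair AT1G24851 and AT1G25180, which is the whole AT1G24851 peak, and 135 bp in the pair AT5G17522 and AT5G17530, which is the whole AT5G17522 peak. They were 81 bp in the thionin pair AT1G34810 and AT1G34815, 52 bp in the disease resistance pair AT3G44400 and AT3G44670, and 50 bp in AT1G39060 and AT1G39070. A read that lies wholly within such a run cannot be assigned to one of the copies by its sequence alone.

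The question of where in a gene the peaks fell was answered from the midpoint of each peak and the annotated transcripts. Coding sequence held 271 of the 584 midpoints (46.4%), introns held 231 (39.6%), 3′ UTRs held 55 (9.42%) and 5′ UTRs held 27 (4.62%). Over all bases spanned by protein-coding genes, 64.5 Mb in all, coding sequence makes up 52.2%, introns 28.1% and UTRs 19.7%. The share of midpoints in introns was thus above the share of intron bases, and the shares in coding sequence and in UTRs, the latter 14.0% for both ends together, were below. Counted by the bases covered by the peaks instead of by their midpoints, the shares were 44.8% coding sequence, 40.7% intron and 12.9% UTR.

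**Figure D1:**
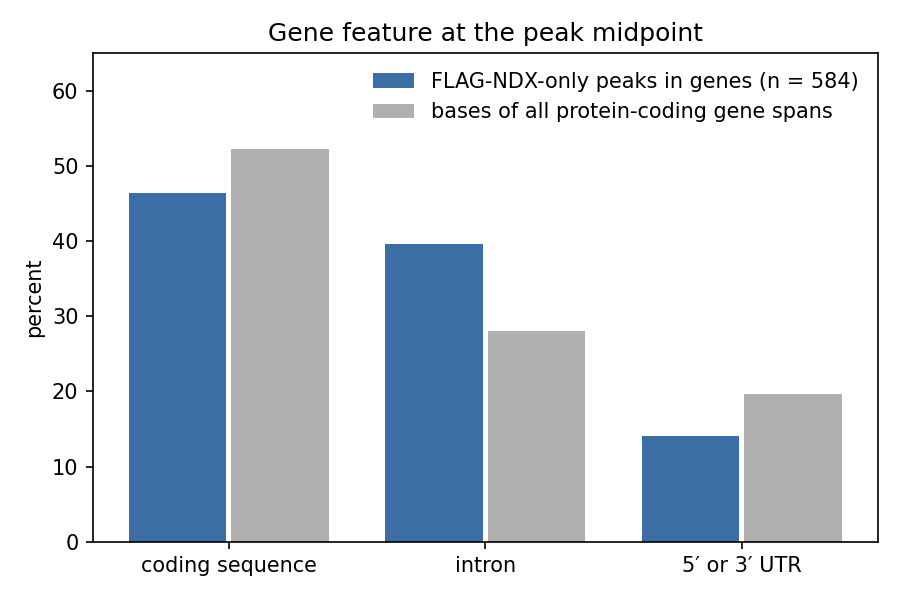
Share of the 584 FLAG-NDX-only peaks in protein-coding genes by the gene feature at the midpoint (blue), beside the share of all bases in protein-coding gene spans (grey), in percent. Introns held 39.6% of the peaks and 28.1% of the bases.

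The peaks were short relative to these features and many crossed their borders. The median width was 135 bp and the widest member measured 495 bp. In all, 260 members overlapped both coding sequence and an intron, and 99 of the coding members lay wholly in coding sequence. Of the coding members, 174 were in an inner exon, 33 in the first exon, 38 in the last exon and 26 in a gene with a single exon, and the median length of the exon was 213 bp. The introns with a midpoint, placed on the transcript with the longest coding sequence for 226 members, were 62 to 5670 bp long with a median of 269.5 bp. The median over all 118649 introns was 99 bp, and introns longer than 202 bp hold 50% of all intron bases. Introns of 1000 bp or more held 15 of these members, or 6.64%, beside 6.03% of intron bases. The first intron of the gene held 39. The shares of all coding and intron bases by exon or intron number were not computed, so the counts by number have no background.

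Named examples illustrate the classes. The 3 highest-scoring intronic members lay in AT2G40715, with a score of 262 in the first of 4 introns, in AT1G67785, with a score of 260 in its only intron, and in ARF22, with a score of 233 in intron 2 of 13. The score is the fifth column of the deposited lists, whose unit is not given in the sources used here, and it is used only to order the peaks. In 3′ UTRs the highest scores were 278.5 in AT1G25180, 223 in AT3G58630, which encodes a sequence-specific DNA-binding transcription factor, and 212 in AT1G24851. In 5′ UTRs the highest scores were lower. They were 168 in CCH, which encodes a copper chaperone, 160 in AT1G34360, which encodes a translation initiation factor of the IF-3 family, and 154 in CLE25, which encodes a small signalling peptide. The median score was 119 in coding sequence, 117 in introns, 115 in 5′ UTRs and 119 in 3′ UTRs, so the classes differed little in score.

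Along the gene, the peaks were most frequent in the middle. Of the 584 midpoints, 303 (51.9%) lay between 30 and 70% of the gene length, counted from the gene start. The first 10% of the gene length held 31 and the last 10% held 42, while the interval from 50 to 60% held 86. In absolute distance, 87 midpoints (14.9%) were within 500 bp of the gene start and 102 (17.5%) within 500 bp of the gene end. Of all gene-span bases, 20.7% are within 500 bp of the start of their gene. More than 500 bp from both ends were 410 midpoints (70.2%), beside 60.4% of gene-span bases. The median distance was 1562 bp from the gene start and 1392 bp from the gene end.

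**Figure D2:**
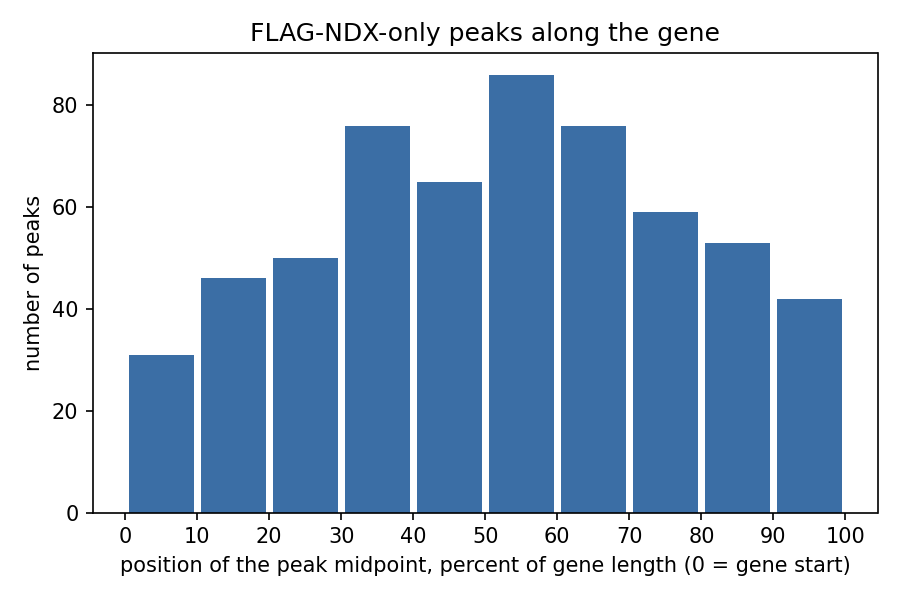
Number of FLAG-NDX-only peaks (vertical axis) by the position of the midpoint in percent of the gene length from the gene start (horizontal axis, bins of 10). The first bin holds 31 peaks, the one from 50 to 60% holds 86 and the last 42.

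The 584 peaks fell in 564 genes. Of all 27444 annotated protein-coding genes, 2.06% held a member, and this share is the background for the gene groups below. One member was found in 541 genes, 2 members in 20 genes and 3 members in 3 genes, and no gene held more. In these counts, and in the densities by gene length and gene family below, the 6 members in 2 overlapping genes count for both genes. Genes with a member were longer than the others. Their median length was 3085 bp, beside 2078 bp over all protein-coding genes, and their median number of exons was 7, beside 4. A long gene offers more bases in which a midpoint can fall, and 50% of all gene-span bases lie in genes longer than 2912 bp, close to the median of the genes with a member.

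The share of genes with a member rose with gene length. It was 0.777% of the 4377 genes under 1 kb, 1.12% of the 8623 genes from 1 to 2 kb, 1.78% of the 7430 genes from 2 to 3 kb, 3.13% of the 5375 genes from 3 to 5 kb and 7.12% of the 1517 genes from 5 to 10 kb. Among the 122 genes of 10 kb or more, 25 (20.5%) held a member. Per Mb of gene span the values were 12.7 members under 1 kb, 7.60 and 7.57 from 1 to 2 and from 2 to 3 kb, 8.78 from 3 to 5 kb, 11.6 from 5 to 10 kb and 18.3 at 10 kb or more, beside 9.01 over all genes. The density of members was therefore not even over gene length, and its highest value was in the longest genes.

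**Figure D3:**
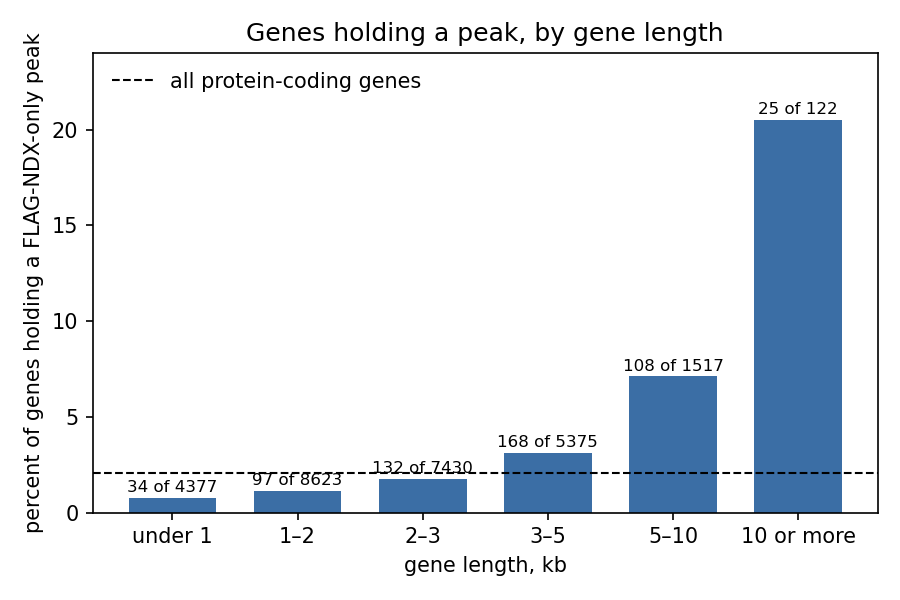
Percent of protein-coding genes that hold a FLAG-NDX-only peak (vertical axis) in 6 classes of gene length in kb (horizontal axis), with the number of genes above each bar. The dashed line marks the 2.06% of all protein-coding genes, and the longest class, 25 of 122 genes, reaches 20.5%.

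The longest gene with a member was ATM (AT3G48190), 27265 bp, which encodes the kinase that signals DNA double-strand breaks. It held a peak with a score of 133.5 in intron 12 of 78 and another with a score of 91 in intron 60. A short gene model on the same chromosome, AT3G48187, carries the same kinase name and held a coding peak with a score of 197.5. AT1G67120, 26211 bp, which encodes a midasin-like protein, held 1 peak in exon 42 of 75 with a score of 132. ABCA1, 13412 bp, which encodes a full-size ATP-binding cassette transporter, held a peak with a score of 242 in exon 15 of 40 and another with a score of 97 in its 3′ UTR. GMI1, 11384 bp, a gene named for its induction by gamma-irradiation and mitomycin C, held peaks with scores of 166 in intron 26 and 114 in intron 27 of 37. Other genes over 10 kb with 1 member included CALS5 (score 174), which encodes a callose synthase, the nuclear pore gene EMB3142 (159), and NRPC1 (107) and NRPC2 (112), which encode the largest subunits of RNA polymerase III. The genes of this paragraph other than ABCA1 and AT3G48187 were picked for their length after the values were seen.

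All 3 genes with 3 members are given, since no gene held 4 or more. ATSMC2 (AT3G47460), which encodes a subunit of condensin, the complex that compacts mitotic chromosomes, held peaks with scores of 187 in exon 2, 215.5 in exon 4 and 94 in intron 6, within the first part of a gene of 6906 bp. AT1G49100, which encodes a leucine-rich repeat protein kinase, held peaks with scores of 112 in intron 1, 121.5 in exon 8 and 93 in intron 8. The last of these lay 195 bp from an NDX-GFP peak. AT1G63330, which encodes a pentatricopeptide repeat protein, held peaks with scores of 101, 104 and 108, and 69.3 to 100% of their 31-mers occur elsewhere in the genome, all of the copies in other protein-coding genes. Genes with 2 members included CYCH;1, which encodes a cyclin of the TFIIH kinase module and had a score of 143 in its higher peak, and AL5, which encodes an alfin-like protein that binds methylated histone H3 and had scores of 102 and 97.5.

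Gene families were read from the product names of the annotation. Immune receptors of the nucleotide-binding leucine-rich repeat (NLR) type held a member in 9 of 159 genes (5.66%), beside 2.06% of all genes. These genes are also long, with a median of 4227 bp, and their density was 13.1 members per Mb beside 9.01 over all genes. The highest-scoring were AT3G51570 (135, exon 4 of 5), AT4G16920 (133, intron 4), RPP1 (127, 3′ UTR), a gene of resistance to downy mildew, and AT1G61180 (126, 3′ UTR). Of the 9 NLR peaks, AT4G16920, RPP1 and AT1G59124 had 100% of their 31-mers repeated, and AT3G44670 had 76.7%. Genes with the word kinase in the product held a member in 43 of 1372 genes (3.13%), or 10.6 members per Mb. Their highest scores were 197.5 in AT3G48187, 183 in CPK31, 175 in CPK22 and 170 in AT1G29740, which encodes a leucine-rich repeat transmembrane kinase.

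Genes with the product name of a helicase or SNF2-type ATPase, enzymes that move along nucleic acids or remodel nucleosomes, held a member in 9 of 146 cases (6.16%). Their median length was 4508 bp and their density 12.5 members per Mb. The highest-scoring were emb1507 (154, intron 2), and AT5G61140 (144, intron 30 of 48), both of which encode a helicase of the U5 spliceosomal particle, NPU (129, exon 4) and RECQL2 (121, 3′ UTR of one of its transcripts), which encodes a RecQ DNA helicase. The list also held PKR2 (93, intron 18), a chromatin remodelling factor. Membership in this list, that of NPU included, rests on the product name alone. Of the 9 peaks of the list, NPU lay in coding sequence, RECQL2 in a 3′ UTR and the other 7 in introns.

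Genes named as transcription factors held a member in 26 of 1075 cases (2.42%), at 10.9 members per Mb. The highest-scoring were AT3G58630 (223), NAC003 (176.5, last exon), NAC010 (165, 3′ UTR) and the homeobox gene KNAT2 (148.5, intron 3 of 4). Among homeobox genes, the family of NDX itself, 2 of 86 held a member. KNAT2 belongs to the KNOX group that acts in the shoot meristem, and HDG12 (134, exon 4 of 10) to a group expressed in the epidermis. The NDX gene (AT4G03090) held 0 members. MADS-box genes held members in 3 of 120 cases, AGL77 (136), AGL17 (113.5) and AT2G41470 (87), all in coding sequence.

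Other families were near or below the background in their share of genes. Zinc finger and RING proteins, many of them ubiquitin ligases, had 18 of 866 genes (2.08%), with the highest scores in AT5G36670 (173), AT1G69610 (159), AT5G13250 (151.5) and AT3G19950 (145). Genes for DNA, RNA and histone binding proteins had 17 of 892 (1.91%), with DRB3 (153), which encodes a double-stranded RNA-binding protein, AT3G32904 (146.5), AT2G05642 (144) and emb2444 (143) on top. Genes for pentatricopeptide and tetratricopeptide repeat proteins, most of which act on organelle RNA, had 11 of 584 (1.88%), with AT4G04790 (143), AT5G55840 (141), AT3G44370 (131) and AT4G11690 (130). F-box genes, which encode substrate adaptors of ubiquitin ligases, had 12 of 653 (1.84%), with AT5G56400 (210), AT1G61060 (163), AT1G50870 (150.5) and AT5G36730 (128.5). As F-box genes are short, with a median of 1367 bp, this came to 12.3 members per Mb.

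Transporter and channel genes had 6 of 557 (1.08%) at 4.24 members per Mb, with ABCA1 (242), AT2G28315 (152, 5′ UTR), NHX6 (146.5), an endosomal sodium/proton antiporter, and ABCB22 (110). Cytochrome P450 genes, which encode haem monooxygenases, had 1 of 249 (0.402%), CYP708A1 (118, intron 4), at 1.79 members per Mb. Both densities were below the 9.01 of all genes although the median lengths, 2790 and 2054 bp, were close to or above the 2078 bp of all genes. Genes for cysteine-rich and defensin-like peptides had 6 of 468 (1.28%), with AT1G34815 (151), AT5G55565 (145), AT2G03936 (135) and LCR50 (132). The peptide genes are short, with a median of 619.5 bp, and their density of 14.0 members per Mb was above the 9.01 of all genes. Genes for electron transport and ribosomal proteins had 6 of 511 (1.17%) at 6.99 members per Mb, with AT1G20460 (118), AT1G64880 (110), AT2G38580 (94) and AT4G36420 (94). Genes named only as transmembrane proteins had 2 of 141, AT3G28770 (142.5) and AT3G50160 (122).

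Silencing, chromatin, flowering and abscisic acid genes were counted from selected symbols, and these lists leave out many genes of the same pathways. Of the 66 symbols of RNA-directed DNA methylation, DNA and histone methylation and Polycomb factors, 0 held a member, and of the 53 symbols of flowering time and abscisic acid signalling, FLC among them, 0 did. At the 2.06% of all protein-coding genes, lists of this size would hold few members. The listed genes are long, however, with medians of 4964 bp for the first list and 3129 bp for the second, beside 2078 bp over all genes. They span 0.342 and 0.191 Mb with 0 members per Mb, beside 9.01 over all genes. Whether the counts of 0 lie below the background for genes of this length was not tested. FLC is itself mutated in these plants. Genes of the same families outside the lists did hold members, and those named here were picked after their values were seen. They were DMT2 (135, exon 2) and CMT1 (88, intron 5), which are annotated as a DNA methyltransferase and a chromomethylase, FIS2 (100, intron 3), which encodes a Polycomb protein of the seed, AT2G38950 (102, exon 5), whose product is of the jumonji family, VEL3 (116, exon 1) and VEL2 (102, intron 7), whose products are named after the vernalization proteins VRN5 and VIN3, and DWA2 (188, intron 7), a gene named for hypersensitivity to abscisic acid. In the DMT2 peak 57.3% of the 31-mers were repeated, all of the copies in other protein-coding genes. A read of at most 31 bases that lies within a repeated 31-mer cannot be assigned to DMT2 by sequence alone. Longer reads were not examined. The peaks in CMT1, FIS2, AT2G38950, VEL3, VEL2 and DWA2 had no repeated 31-mer. The counts of 0 therefore hold for the selected symbols and not for these pathways.

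Models without a known function made up a large group. Of 3993 genes whose product is hypothetical, uncharacterized or named by a domain of unknown function, 75 (1.88%) held a member. These genes are short, with a median of 1159 bp, and carried 13.6 members per Mb, above the 9.01 of all genes. Of their 80 members, 23 lay in the pericentromeric zones defined below, which hold 14.4% of the genes of this list. An excess in the zones was not particular to this list. Of all members, 14.9% lay in the zones, which hold 7.12% of gene-span bases. The 80 members included 7 of the 15 highest-scoring members, which lay in AT1G25180 (278.5), AT2G40715 (262), AT1G67785 (260), AT1G40129 (234), AT1G39060 (222), AT1G24851 (212) and AT1G40090 (210). Of these peaks, those in AT1G25180, AT1G40129, AT1G39060, AT1G24851 and AT1G40090 had 100% of their 31-mers repeated. The other 8 of the 15 were in ABCA1, ARF22, AT3G58630, PLP4 (220, intron 5), which encodes a patatin-like lipid hydrolase, ATSMC2, ARF14, UBP8 (213, intron 10), which encodes a deubiquitinating enzyme, and AT5G56400. Models with transposon-derived product names held members in 5 of 307 genes (1.63%). These were AT2G06500 (128), AT4G08267 (119.7), AT2G10260 (108), AT5G28235 (107) and AT3G30200 (103), and all 5 lay in the pericentromeric zones, which hold 22.5% of the genes of this list.

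Recurring names among the members led to 5 more groups, which were picked after the values were seen, so that their counts describe the choice and support nothing. Of 17 genes with the symbol of a myosin, a motor that moves organelles along actin, 8 held a member, each with 1 peak. These were ATM2 (153), XIG (150), XIH (137), XID (134), XIC (126), XIJ (117), XIF (109.5) and XI-I (108). The myosin peaks had no common place in the gene, since 4 were in exons 8, 9, 13 and 24 and 4 in introns 11, 12, 17 and 25. All 8 were free of repeated 31-mers. Of 13 genes named for structural maintenance of chromosomes (SMC), 5 held 7 members in all. Beside the 3 peaks of ATSMC2 these were 1 each in SMC3 (119), SMC6A (117), TTN7 (115), which encodes a cohesin subunit, and SMC2 (93), which encodes a condensin subunit. Genes whose product names DNA repair, recombination, mismatch repair, a RAD50-type protein, a RecQ helicase, a meiotic endonuclease or the Smc5 complex held a member in 9 of 67 cases, among them DMC1 (172, intron 9), which encodes the meiotic strand-exchange protein, MLH3 (145, exon 13), EME1A (123, intron 3), RECQL2, RECQ4B (116, intron 4) and RAD50 (116, exon 12). The median length was 10100 bp for the myosin genes, 6136 bp for the SMC genes and 3389 bp for the repair genes, all above the 2078 bp of all genes.

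Auxin response factor genes held a member in 4 of 21 cases, ARF22 (233), ARF14 (214), ARF15 (108) and ARF20 (93), all on chromosome 1. The ARF22 and ARF14 peaks both lay over the CT repeat of intron 2 shown above. They had 7.62 and 23.8% of their 31-mers repeated, and single 31-mers occurred up to 20 and 3208 times in the genome. The ARF15 and ARF20 peaks lay in coding sequence and had 62.2 and 55.6% of their 31-mers repeated. Calcium-dependent protein kinases, which act as calcium sensors, held a member in 3 of 31 genes. The 3 are neighbours by locus number on chromosome 4, CPK31 (183, intron 3), CPK27 (121.5, exon 4) and CPK22 (175, exon 4), and 16.2% of the 31-mers of the CPK31 and CPK22 peaks were repeated.

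Along the chromosomes, members were denser near the centromeres than in the arms. On each chromosome, the 1 Mb window least covered by protein-coding genes was located, and the 2.5 Mb on either side of its centre were called the pericentromeric zone. These zones make up 21.0% of the nuclear genome but only 7.12% of the gene-span bases. They held 87 of the 584 members (14.9%), and the arms held 497. This corresponds to 19.0 members per Mb of gene span in the zones and 8.30 in the arms, a ratio of 2.28. The zone value was above the arm value on every chromosome. It was 19.1 beside 8.52 on chromosome 1, 17.7 beside 9.60 on chromosome 2, 30.0 beside 7.30 on chromosome 3, 16.6 beside 6.15 on chromosome 4 and 14.5 beside 9.41 on chromosome 5. Repeated sequence moved with this difference. Of the members in the zones 59.8% had no repeated 31-mer, against 84.5% in the arms, and the ratio was 1.62 when only the 472 members without repeated 31-mers were counted. The gene-span bases behind the 1.62 were not limited to sequence without repeats.

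**Figure D4:**
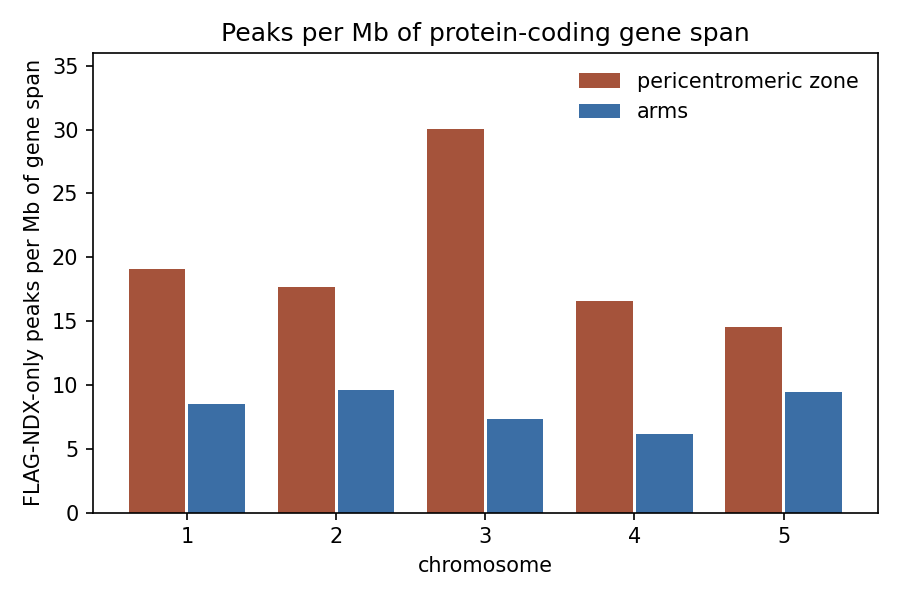
FLAG-NDX-only peaks per Mb of protein-coding gene span (vertical axis) in the pericentromeric zone (brown) and in the arms (blue) of the 5 chromosomes. The zone bar is the higher on each chromosome, from 14.5 beside 9.41 on chromosome 5 to 30.0 beside 7.30 on chromosome 3.

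In other measures the zone and arm members were alike in score and differed in the features and genes they lay in. The median score was 119 in the zones and 118 in the arms, and the median length of the gene was 2755 bp in the zones and 3143 bp in the arms. In the zones 51.7% of midpoints were in coding sequence, 39.1% in introns and 9.20% in UTRs, and in the arms 45.5%, 39.6% and 14.9%. The shares of gene-span bases were 51.1%, 31.8% and 17.1% in the zones and 52.3%, 27.8% and 19.9% in the arms. The coding share of midpoints was thus below that of bases in the arms and not in the zones. None of the 27 members in 5′ UTRs lay in a zone, and 8 of the 55 members in 3′ UTRs did. Of the 51 members in genes named only as uncharacterized protein, 20 were in the zones. The members lay less often in the zones than the FLAG-NDX-only peaks elsewhere, with 14.9% beside 76.1% in pseudogenes and 61.9% outside both kinds of gene. As genes are sparse in the zones by their definition, this order follows in part from the choice of regions. Among peaks in protein-coding genes, the share in the zones was 17.1% for FLAG-NDX peaks that overlapped an NDX-GFP peak and 27.0% for NDX-GFP-only peaks.

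Most members lay in sequence found once in the genome. No 31-mer was repeated in 472 members (80.8%), some but at most 50% in 63, and a majority in 49 (8.39%). Among the FLAG-NDX-only peaks in pseudogenes 38.0% were free of repeats, and among those outside both kinds of gene 42.6%. The other groups in protein-coding genes were closer to the members. They had 73.2% in FLAG-NDX peaks that overlapped an NDX-GFP peak and 76.2% in NDX-GFP-only peaks. The share over all protein-coding gene sequence was not computed, so 80.8% has no background of that kind. No member shared a 31-mer with the mitochondrial or the plastid sequence of the same assembly. For the 49 members with a majority of repeated 31-mers, most of the copies lay in other protein-coding genes in 33 cases and outside genes in 16. By class, 74.5% of coding members, 87.9% of intronic members, 92.6% of 5′ UTR members and 76.4% of 3′ UTR members were free of repeats. The highest-scoring member, AT1G25180 (chr1:8830996-8831280), was wholly repeated, and its 31-mers occurred a median of 4 times in the genome. The uncharacterized models AT1G39060, AT1G39070 and AT1G40090, in the zone of chromosome 1 between chr1:14702536 and chr1:15014445, held 5 members, of which 4 had 96.0 to 100% of their 31-mers repeated and AT1G40090 held another with 27.8%. Single 31-mers of these peaks occurred up to 251 times.

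Base composition varied less among the members than over gene sequence at large. GC content was measured in a window centred on each midpoint, as wide as the narrowest peak, and compared with all 602258 windows of the same length laid end to end over protein-coding genes. The median was 36.2% in members, with an interquartile range from 33.3 to 38.1%, and 39.05% in the windows, with an interquartile range from 34.3 to 43.8%. The standard deviation was 4.39 over members and 7.20 over windows. GC content of 45% or more was found in 5 members (0.856%) and in 18.1% of windows, and 53.3% of members but 28.3% of windows were between 33 and 39%. The members thus filled a narrower band than the windows, with few on the GC-rich side.

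**Figure D5:**
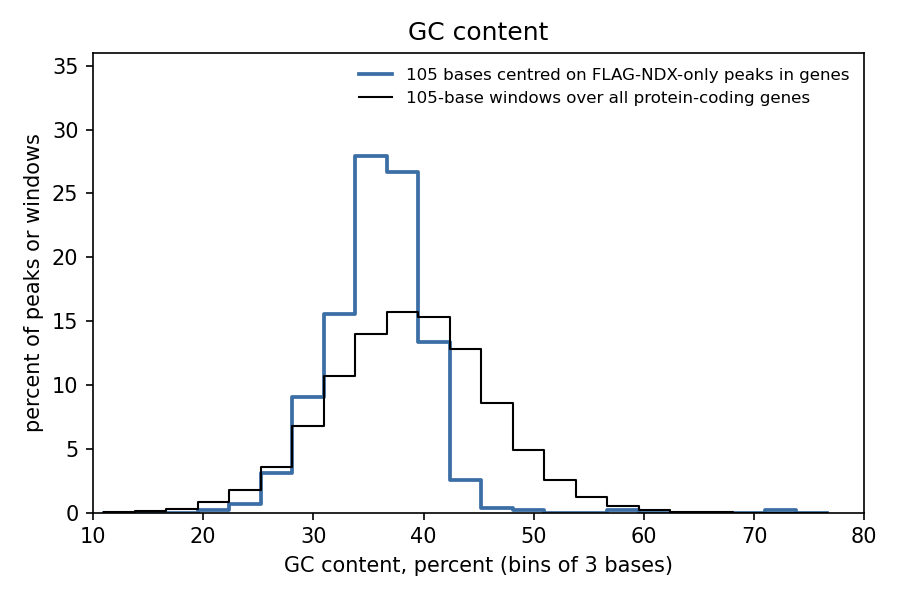
Distribution of GC content (horizontal axis, percent, in bins of 3 bases) in windows as wide as the narrowest peak, centred on the 584 FLAG-NDX-only peaks in genes (blue) and in 602258 windows of that length over all protein-coding genes (black), as percent of peaks or windows (vertical axis). The members have a standard deviation of 4.39 and the windows of 7.20.

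The lower median was found mainly in coding sequence, while the narrower spread was found in every class. The standard deviation was 4.07 over coding members and 5.58 over coding windows. Coding members had a median GC content of 38.1%, beside 42.9% in coding windows, and 3 of 271 (1.11%) reached 45%, beside 31.7% of coding windows. Intronic members and intron windows both had a median of 34.3%, and their standard deviations were 3.89 and 5.37. Members in UTRs had a median of 35.2% and UTR windows of 34.3%, with standard deviations of 3.58 and 6.38. On the coding strand, coding members held on average 31.3% A, 30.8% T, 21.5% G and 16.5% C, and coding windows 28.4% A, 28.6% T, 23.1% G and 19.9% C. Runs of at least 7 A or 7 T were present in 8.23% of intronic members and 13.1% of intron windows, in 9.76% of UTR members and 17.7% of UTR windows, and in 4.43% of coding members and 2.73% of coding windows. The other groups of peaks had a similar composition over the whole peak, with medians of 35.9% in the members, 36.7% in FLAG-NDX peaks in genes that overlapped an NDX-GFP peak, 36.2% in NDX-GFP-only peaks in genes, 36.7% in FLAG-NDX-only peaks in pseudogenes and 34.3% outside both kinds of gene.

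Short motifs were searched in the same windows on both strands. TAAT, the core bound by many homeodomains, was present in 396 members (67.8%) and in 59.9% of gene windows. In windows of 33 to 39% GC, a band chosen after the GC values were seen, TAAT was present in 68.8% of 311 members and 69.3% of gene windows, so the 7.93 points between the first pair of values were not found at matched composition. CAATNATTG, the site of homeodomain-leucine zipper proteins, was in 0 members and 0.249% of windows. The telobox AAACCCTAA was in 4 members (0.685%) and 0.777% of windows, the repeat GAAGAAGAA in 15 (2.57%) and 2.41%, and the repeat GAGAGAGA, whose reverse complement is the CT repeat of ARF22 and ARF14, in 13 (2.23%) and 2.10%. A match of this kind describes the letters in the window and not a site of binding.

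The members just inside the definition and the peaks just outside it are given as a description. The members nearest to an NDX-GFP peak without overlap lay in the deubiquitinase gene UBP13 (AT3G11910), with a score of 95 and a gap of 15 bp to an NDX-GFP peak with a score of 122, in AT4G07350, with a score of 133 and a gap of 30 bp, and in AT3G32090, a gene of the WRKY family of transcription factors, with a score of 135 and the third smallest gap. The FLAG-NDX peaks in genes left out with the smallest overlap lay in AT5G36300 (score 103, 30 bp of overlap), AT1G10490 (101, 45 bp) and AT1G42525 (93, 60 bp). The members nearest to a gene border were in AT2G41470 (1 bp inside), ERD7 (AT2G17840, 3 bp) and AT1G29870 (4 bp), and the FLAG-NDX-only peaks nearest outside were 1 bp from AT3G47600, 5 bp from AT1G65150 and 7 bp from AT3G23380. Most members were far from such edges. The median distance to the nearest NDX-GFP peak was 140925 bp, 14 members lay within 1000 bp of one, and 17 lay in a gene that also held the midpoint of an NDX-GFP peak.

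Scores of the members ranged from 82 to 278.5, with a median of 118 and an interquartile range from 104 to 135. A score of 100 or more was found in 481 members, of 150 or more in 91 and of 200 or more in 17. The 41 FLAG-NDX peaks in genes that overlapped an NDX-GFP peak had a median of 124.5 and ranged from 90 to 199.5, so the ranges overlapped. Of their midpoints, 51.2% were in coding sequence, 46.3% in introns and 2.44% in UTRs. The FLAG-NDX-only peaks in pseudogenes and outside both kinds of gene had the same median of 118 as the members. The 63 NDX-GFP-only peaks in genes had a median score of 101, which comes from another list and is not comparable as a level. In that group 42.9% of midpoints were in coding sequence, 44.4% in introns and 12.7% in UTRs, and 76.2% were free of repeats.

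Members were rarely next to each other. Only 3 stretches held 4 or more members with gaps of at most 25 kb. One of 43.4 kb on chromosome 1 (chr1:18855961-18899370) had 4 members in AT1G50870, AT1G50950, AT1G50960, which encodes a gibberellin 2-oxidase, and AT1G50970, among 11 protein-coding genes. One of 42.4 kb (chr5:6918541-6960945) had 4 members in AT5G20470, AL5 and AT5G20580, and one of 30.8 kb (chr5:15513391-15544170) had 4 members in AGL77, AT5G38743, AT5G38747 and AT5G38820. The product of AT5G20470 is named myosin, and its symbol HDK kept it out of the 17 genes counted above. In the first 2 stretches 3 members each were free of repeated 31-mers, and in the last 1 was. All 3 stretches lay in the arms.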

How the data were processed

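The deposited data were 2 lists of peak intervals, 1 for FLAG-NDX and 1 for NDX-GFP, each with a midpoint and a score made by the authors. The submitters' processing notes name Bowtie2, SAMtools, Picard, deepTools and MACS2 and the build TAIR10. How the 2 immunoprecipitations of a line became 1 list, the peak settings, the use of the input sample and the unit of the deposited score are not given in the sources used here. Peak starts and ends fall on a grid of 15 bp and the narrowest peak is 105 bp. The depth is unknown. A control without a tag, which the growth text mentions, was not analysed here.

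Peaks sharing 1 bp or more with the other list were taken out, and the midpoint was read as a 0-based position on TAIR10.1 with the RefSeq annotation. The class of a midpoint was taken from any transcript of the gene in the order coding sequence, UTR, other exon and intron, and exon and intron numbers from the transcript with the longest coding sequence. Repeats were counted as 31-mers present more than once in the genome on either strand, and GC content and motifs in windows of 105 bases. For the pericentromeric zones, 1 Mb windows were moved in steps of 100 kb. Python 3.11.15, NumPy 2.4.6, SciPy 1.17.1 and Matplotlib 3.10.9 were used, and the scripts were tested on simulated data. No test over samples was made.

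The members and gene lists were chosen with earlier results of these data known. Of the lists, 19 came from product names or selected symbols, which do not cover a pathway or family in full, and 5 (myosins, SMC, DNA repair, auxin response factors, calcium-dependent kinases) were added after the values were seen. The words uncharacterized protein were added to one pattern, and the thionin and AP2 patterns were limited to whole words, after matches were seen. Genes were named by rule if they held one of the 15 highest scores, belonged to a symbol list, had up to 4 of the highest scores of a product list or 3 of the highest in a 5′ UTR, 3′ UTR or intron, or lay nearest to the edges of the definition. The rule also took genes with 4 or more members, of which there were 0. Long genes, genes with 2 or 3 members, chromatin, flowering and abscisic acid genes outside the symbol lists, the genes of the added lists and those of the stretches of neighbours were named after their values were seen. Alternatives changed the overlap, the score minimum, the midpoint, the transcript, the zone width, the k-mer length and the distance to gene ends, and the restriction to members without repeats was added after the data were seen.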

Additional observations from a re-analysis of the deposited data

How the results depend on the processing

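No paired analysis was possible because each line has 1 peak list with no value per sample, and the results come from no test. Of 74 values under alternatives, over 11 results, 56 stayed within the 95% Clopper-Pearson interval of a share, the interval of the median, or 1.5 times a count, all of which cover counting error only. The other 18 are as follows. With a score of at least 150 there were 91 peaks in 90 genes, with a median GC content over the peak of 36.7%, 35.2% of midpoints in introns, 23.1% within 500 bp of the gene end and 72.5% without repeated 31-mers, and the cause was not tested. The share in the zones was 11.02% for members without repeats, 7.53% for zones of 1.5 Mb on either side and 31.3% for 4 Mb, where the density ratio of zones to arms was 3.25 and 2.01. From the transcript with the longest coding sequence alone, 10.4% of midpoints were in UTRs. Within 250 and 1000 bp, by construction, were 7.71 and 31.5% of midpoints at the gene start and 10.4 and 36.3% at the gene end. With the whole peak inside the gene, 12.1 and 14.3% were within 500 bp of start and end. Without repeated 25-mers were 75.2% of members, and without repeated 50-mers 88.9%.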
